A study of Mus musculus with 8 samples.

Results

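The SOX transcription factors Sox2, Sox4, Sox5, Sox6, Sox8, Sox9, Sox10, Sox11 and Sox12, which act in the neural crest and in progenitor cells, were followed through 8 mouse tumors. The 9 genes were taken by name from a table of raw counts for 49671 gene identifiers, and all 9 were in it. Every tumor carried the genotype HprtCre; Ewsr1-loxP; Atf1-loxP, in which Cre recombination can join Ewsr1, encoding an RNA-binding protein, to Atf1, encoding a CREB family transcription factor. Fusion of the human counterparts is the hallmark of clear cell sarcoma of soft tissue, and the tumors are titled CCS. Cre stood in the Hprt locus, a gene active in most cell types, and the labels do not name the cell in which a tumor arose. The tissue was frozen at morbidity from the primary tumor, no drug had been given, and ages were not stated. The tumors are titled 1, 2L, 2R, 3, 4a, 4b, 5 and 6, form 1 group and have no control tissue beside them. The labels do not say whether libraries of 1 number came from 1 animal, so p-values measure only the spread between these libraries.

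SOX proteins bind DNA through a high mobility group domain and are sorted into lettered groups by the similarity of that domain. In the embryo, SOXE proteins specify the neural crest, and Sox10 then maintains its glial and pigment lineages while Sox9 directs cartilage formation. SOXC proteins act in neuronal and mesenchymal progenitors, SOXD proteins lack a transactivation domain of their own and modulate other SOX proteins, and Sox2 keeps neural progenitors and pluripotent cells undifferentiated.

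Library totals lay between 4817902 counts in tumor 3 and 19682149 in tumor 2L. Levels are CPM, the counts scaled to a common library size, of the counts in 11505 genes kept by an expression filter, scaled by TMM factors between 0.39 in tumor 3 and 1.36 in tumor 2L. TMM raises the values of tumor 3: scaling by library totals alone lowered the median gene there by 1.33 on the log2 scale, and moved it by -0.27 to 0.45 in the other 7 libraries. Where a comparison rests on tumor 3, its level by library totals is therefore given as well. As the libraries are from bulk tissue, fewer cells of a type and less RNA per cell cannot be told apart.

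Sox11 and Sox9 were the most abundant of the 9 factors, and Sox10 was nearly absent. Of the 9 genes, 8 averaged at least 1 CPM over the 8 tumors, 6 averaged at least 10 CPM and 7 had counts in every library. Divided by the length of all exons, the mean level was 29.6 CPM per kb for Sox11, above 92.3% of the genes kept that have an annotated length, and 13.3 CPM per kb for Sox9, above 78.9% of them. Sox8 averaged 4.95, Sox4 3.85 and Sox12 3.501 CPM per kb. Sox5 averaged 0.736, Sox2 0.591, Sox6 0.432 and Sox10 0.0160 CPM per kb.

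Ordered by mean log2 level per kb, the genes ran Sox11, Sox9, Sox4, Sox8, Sox12, Sox5, Sox2, Sox6 and Sox10. Sox11 exceeded Sox9 by 1.22 ± 1.21 on the log2 per kb scale (SD, n = 8) and was the higher in 7 of 8 tumors. Sox9 exceeded Sox4 by 1.54 ± 1.12 (SD, n = 8), again in 7 of 8. Each of the 6 remaining pairs of neighbours differed by less than the SD of the difference over the 8 tumors. For example, Sox4 and Sox8 differed by 0.68 ± 2.01 on that scale, and each was the higher in 4 tumors.

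**Figure D1:**
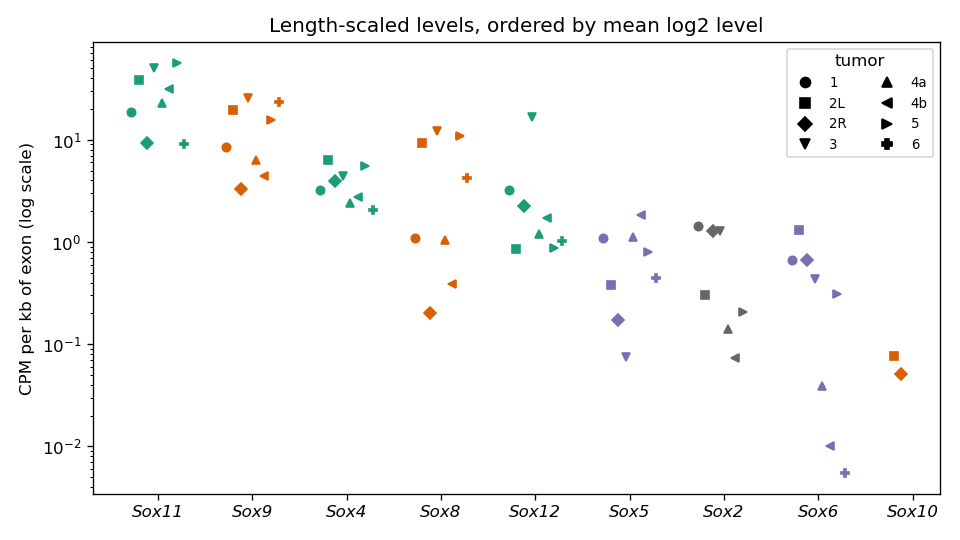
Level of each SOX gene per kb of exon (CPM per kb, log axis), ordered by mean log2 level. Symbols mark the 8 tumors, colors the SOX groups, and libraries with 0 counts are not drawn. Sox11 stands at the top with a mean of 29.6 CPM per kb, and Sox10 at the bottom with 0.0160.

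The SOXC genes differed from each other in level and in the tumors where they were highest. Sox11 (ENSMUSG00000063632, mm10 chromosome 12, positions 27334264 to 27342574, minus strand) promotes neuronal differentiation and survival of mesenchymal progenitors. Sox4 (ENSMUSG00000076431, chromosome 13, 28948919 to 28953713, minus strand) overlaps with Sox11 in those roles and is also needed for heart and lymphoid development. Sox12 (ENSMUSG00000051817, chromosome 2, 152393611 to 152398063, minus strand) is the third member of the group, with weaker transactivation than Sox11. To show the upstream DNA of these 3 genes, the 250 bases before the RefSeq start of each (build GRCm38.p6, 5′ to 3′ on the gene's strand) are printed with CCAAT boxes and TGACG, the core of the CRE site bound by CREB and ATF proteins, in capitals on whichever strand they lie. The windows are chr13:28953700-28953949 for Sox4, chr12:27342719-27342968 for Sox11 and chr2:152398047-152398296 for Sox12, all read from the minus strand.
Sox4: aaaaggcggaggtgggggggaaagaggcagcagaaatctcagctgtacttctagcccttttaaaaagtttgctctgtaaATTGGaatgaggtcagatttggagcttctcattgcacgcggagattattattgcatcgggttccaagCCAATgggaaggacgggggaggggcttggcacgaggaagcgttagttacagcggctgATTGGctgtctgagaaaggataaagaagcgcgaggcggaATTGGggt
Sox11: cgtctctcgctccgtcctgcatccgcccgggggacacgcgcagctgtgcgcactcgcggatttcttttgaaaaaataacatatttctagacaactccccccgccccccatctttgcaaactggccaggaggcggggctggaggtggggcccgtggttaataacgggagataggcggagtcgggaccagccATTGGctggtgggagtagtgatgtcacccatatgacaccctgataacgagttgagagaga
Sox12: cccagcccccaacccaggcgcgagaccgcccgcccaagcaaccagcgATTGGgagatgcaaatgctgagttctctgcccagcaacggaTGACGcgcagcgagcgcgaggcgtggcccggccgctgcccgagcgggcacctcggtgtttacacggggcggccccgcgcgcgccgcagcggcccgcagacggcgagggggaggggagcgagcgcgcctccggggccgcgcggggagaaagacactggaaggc

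The Sox4 window held 4 CCAAT boxes, counting both strands, and the Sox11 and Sox12 windows held 1 each. At least 4 boxes were found in 0.84% of all 32851 RefSeq windows of that length, and at least 1 in 33.8%. The threshold of 4 was the highest count in any window of the SOX genes under study, so the 0.84% is a description. TGACG was in the Sox12 window, 162 bases before the start, and in 17.8% of all windows. Windows were read for Sox2, Sox4, Sox5, Sox6, Sox8, Sox11 and Sox12, and have no entry for Sox9 and Sox10. The full site TGACGTCA, which contains TGACG on both strands, was in 0 of the 7 genes with a window and in 1.55% of all windows. TGACG was in 2 of the 7 (Sox12 and 1 of 6 Sox6 windows), CCAAT in 5, and the SOX core ACAAT in 2 (Sox5 and Sox6). ACAAT was in 27.7% of all windows. As Sox6 has 6 windows, these counts of genes cannot be set against shares of windows. Such matches describe letters and are not evidence of binding.

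Sox11 had 469.8 CPM in tumor 5, 417 in 3, 322 in 2L, 262 in 4b, 189 in 4a, 157 in 1, 76.9 in 2R and 75.4 in 6, a mean of 246 ± 148 CPM (SD, n = 8). Tumors 5, 3 and 2L were the highest, and tumors 2R and 6 the lowest. By library totals, tumors 5 and 2L kept the first places, while tumor 3 ranked 6 of 8 with 164 CPM.

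Sox4 had 30.4 CPM in tumor 2L, 26.7 in 5, 21.3 in 3, 19.2 in 2R, 15.4 in 1, 13.2 in 4b, 11.6 in 4a and 9.84 in 6, a mean of 18.5 ± 7.35 CPM (SD, n = 8). It varied least of the SOXC genes, with an SD of 0.57 on the log2 scale, close to the median of 0.51 over the 11505 genes kept. Tumors 2L and 5 were again the highest, also by library totals, by which tumor 3 became the lowest with 8.39 CPM.

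Sox12 had 75.1 CPM in tumor 3, 14.2 in 1, 10.1 in 2R, 7.71 in 4b, 5.38 in 4a, 4.55 in 6, 3.90 in 5 and 3.76 in 2L. Tumor 3 stood above the rest under both scalings, with 29.6 CPM by library totals against at most 15.6 in the other 7. Its lowest levels were in 2L and 5, the tumors where Sox4 was highest. The Sox11 to Sox12 ratio per kb accordingly spanned 2.97 in tumor 3 to 64.6 in tumor 5, while the Sox11 to Sox4 ratio per kb spanned 2.32 in 2R to 11.4 in 4b and was above 1 in all 8 tumors.

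**Figure D2:**
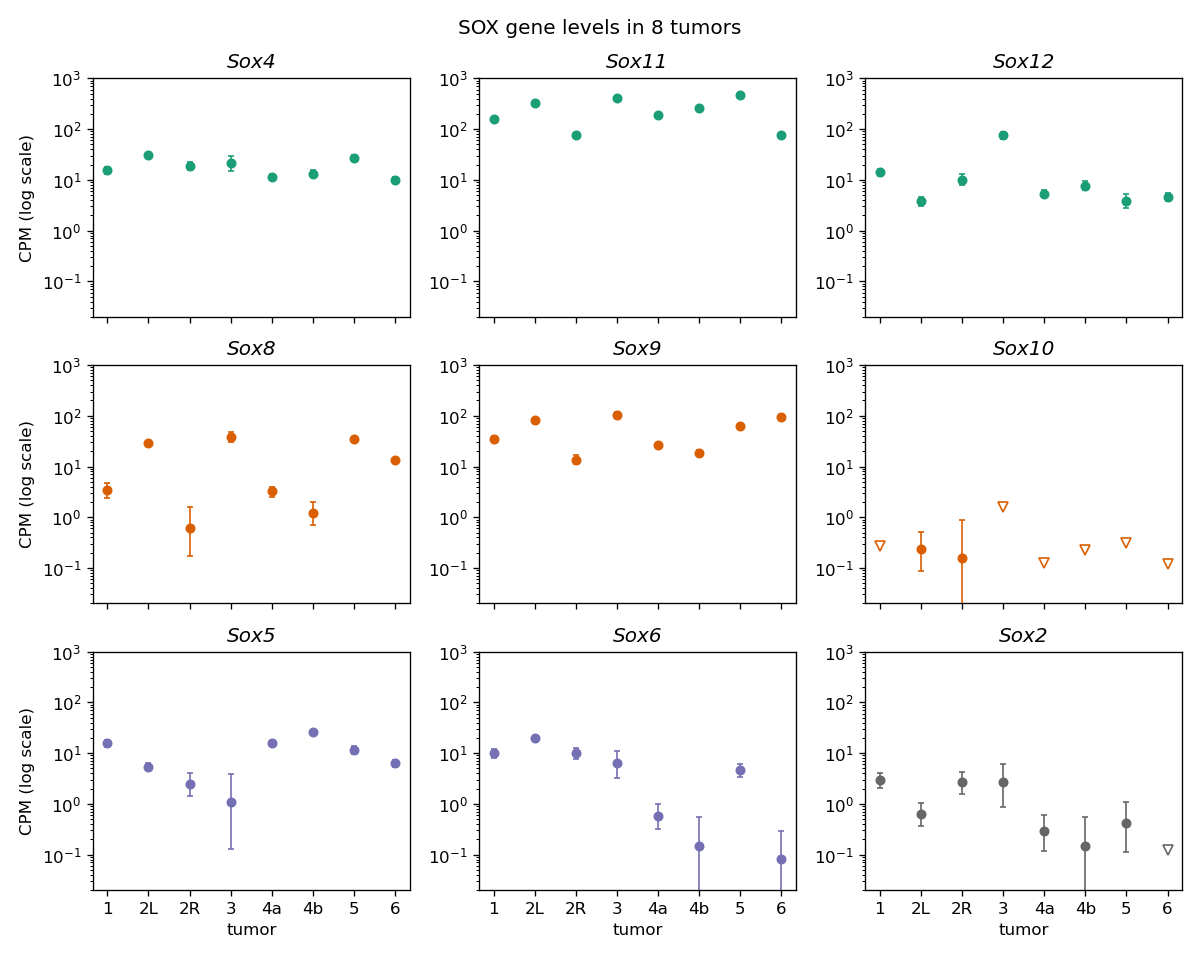
CPM of each SOX gene in the 8 tumors (TMM-scaled, log axis) with 95% exact Poisson intervals, which cover counting error only and run past the lower axis limit at 1 or 2 counts. Open triangles mark the upper limit of libraries with 0 counts, and colors the SOX groups. Sox4, Sox8 and Sox11 are high in 2L, 3 and 5, whereas Sox12 is high in 3 alone with 75.1 CPM. By library totals tumor 3 ranks 4 of 8 for Sox8 and Sox9, 6 for Sox11 and 8 for Sox4.

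Among the SOXE genes, Sox9 was abundant in every tumor, Sox8 varied widely and Sox10 was nearly absent. Sox9 (ENSMUSG00000000567, chromosome 11, 112782224 to 112787760, plus strand) is the master regulator of chondrocytes and an early neural crest factor. It had 105 CPM in tumor 3, 96.2 in 6, 81.3 in 2L, 63.9 in 5, 35.4 in 1, 26.1 in 4a, 18.3 in 4b and 13.7 in 2R, a mean of 55.1 ± 36.4 CPM (SD, n = 8). Tumors 3, 6, 2L and 5 thus lay above 1, 4a, 4b and 2R. By library totals the order at the top was 6 (124 CPM), 2L (111), 5 and then 3 (41.5).

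Sox8 (ENSMUSG00000024176, chromosome 17, 25565892 to 25570686, minus strand) acts beside Sox9 and Sox10 in crest-derived lineages. It had 38.4 CPM in tumor 3, 34.2 in 5, 29.1 in 2L, 13.3 in 6, 3.37 in 1, 3.23 in 4a, 1.21 in 4b and 0.623 in 2R. The 4 tumors with the most Sox8 were the 4 with the most Sox9, under both scalings. By library totals tumor 3 had 15.1 CPM, below 2L (39.7), 5 (34.1) and 6 (17.1). Per kb, Sox8 remained below Sox9 in all 8 tumors, with ratios of 0.710 in tumor 5, 0.475 in 2L and 0.482 in 3, and a lowest ratio of 0.0603 in 2R, where 4 Sox8 counts were found.

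Sox10 (ENSMUSG00000033006, chromosome 15, 79154908 to 79165240, minus strand) is the crest factor of Schwann cells and melanocytes and activates Mitf, the regulator of pigment cells. It had 7 counts in all libraries together, 6 in 2L and 1 in 2R. The pooled level was 0.0601 CPM, with a 95% exact Poisson interval of 0.0241 to 0.124 CPM that covers counting error only. In the 6 libraries without a count, the level allowed by 0 counts was at most 0.316 CPM outside tumor 3 and 1.60 CPM in tumor 3. Mitf itself had 30.3 to 41.1 CPM in 7 tumors and 130.5 CPM in tumor 3. By library totals tumor 3 had 51.4 CPM of Mitf, below 53.01 CPM in 6 and 52.8 CPM in 4a. Foxd3, which like Sox10 defines the early crest, reached at most 0.533 CPM, which is 1 count in tumor 3. Some other crest regulators were present in every tumor, among them Ets1, Snai1 (4.90 to 14.8 CPM) and Twist1 (3.90 to 18.7 CPM), the latter pair regulators of cell migration. Others were not: Pax3, Tfap2b and Msx2 had 0 CPM in tumor 6, Dlx5 had 0 CPM in tumor 3, and Zic1 reached at most 0.235 CPM.

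The SOXD genes were high in different tumors. Sox5 (ENSMUSG00000041540, chromosome 6, 143828425 to 144781977, minus strand) cooperates with Sox9 in cartilage and restrains Sox10 in pigment cells. It had 26.2 CPM in tumor 4b, 16.03 in 4a, 15.6 in 1, 11.5 in 5, 6.34 in 6, 5.45 in 2L, 2.49 in 2R and 1.07 in 3 (2 counts). Tumors 4b, 4a and 1 were the highest, and tumor 3 was the lowest under both scalings.

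Sox6 (ENSMUSG00000051910, chromosome 7, 115470872 to 116038796, minus strand) partners Sox5 in cartilage and also acts in muscle fibres and red cell precursors. It had 19.6 CPM in tumor 2L, 9.97 in 2R, 9.86 in 1, 6.39 in 3 and 4.63 in 5. By library totals tumor 3 had 2.52 CPM of Sox6, below 4.62 CPM in 5. The other 3 tumors held few reads, with 0.580 CPM in 4a (14 counts), 0.151 CPM in 4b (2 counts) and 0.0813 CPM in 6 (2 counts). The Sox5 to Sox6 ratio per kb was 0.172 in 3, 0.286 in 2L and 0.258 in 2R, against 1.64 in 1, 2.56 in 5, 28.5 in 4a, 80.5 in 6 and 179 in 4b. The values of 6 and 4b rest on 2 Sox6 counts each. Both genes are spread over long introns, and transcripts named for overlap with them held few counts: Sox5it 21 and Sox6os 1 over all libraries. Whether counting used strand is not given in the sources used here.

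Sox2 (ENSMUSG00000074637, chromosome 3, 34650405 to 34652461, plus strand), the SOXB1 member, was low throughout. It had 2.93 CPM in tumor 1, 2.66 in 3, 2.65 in 2R, 0.627 in 2L, 0.421 in 5, 0.290 in 4a, 0.151 in 4b and 0 in 6, where 0 counts allow up to 0.122 CPM. Tumors 1, 2R and 3 held the highest levels, on 33, 17 and 5 counts. By library totals these 3 were still the highest, with 3.21, 2.20 and 1.05 CPM. The overlapping noncoding gene Sox2ot had 42 counts in all and reached 1.86 CPM, and its reads cannot be told apart from those of Sox2 where the genes overlap.

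**Figure D3:**
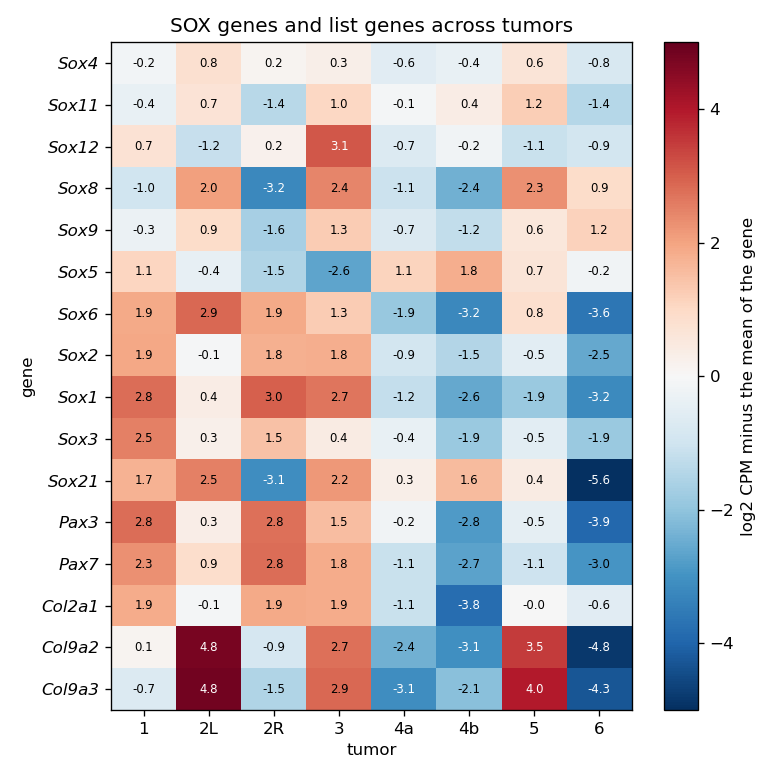
Log2 CPM of the SOX genes and other listed genes in the 8 tumors, each gene centred on its own mean over the tumors. Colors give the deviation in log2 units. Sox8 and Sox9 share their 4 highest tumors, 2L, 3, 5 and 6, and Sox6 is lowest in 4a, 4b and 6.

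To ask which genes differ among the 6 title numbers, edgeR's quasi-likelihood test was used, in which the pairs 2L with 2R and 4a with 4b give the spread. The filter keeps genes with enough counts in all 8 libraries and passed Sox4, Sox9, Sox11 and Sox12. The 5 others failed it and were not tested. The test called 0 of 11505 genes at an adjusted p under 0.05 (0%), and 2813 had an unadjusted p under 0.05 (24.5%). Of the 4 SOX genes tested, 0 were called. Sox12 had an unadjusted p of 0.00566 in edgeR's test (adjusted p = 0.118), and the adjusted p of Sox4, Sox11 and Sox9 in the same test was 0.230, 0.422 and 0.475. Their SD on the log2 scale over the 8 tumors was 1.42 for Sox12, 1.13 for Sox9 and 1.02 for Sox11, larger than in 96.4%, 91.6% and 88.0% of the genes kept.

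Other fits made calls. DESeq2's likelihood ratio test called 2383 genes (20.7%) and, of the 4, Sox12 at an adjusted p of 6.38e-09. Without the filter, edgeR called 6260 of 30321 genes (20.6%) and 5 of the 9 SOX genes: Sox2, Sox5, Sox6, Sox11 and Sox12. Leaving out tumor 2L gave 4457 of 11506 genes (38.7%) and 3 of 4 SOX genes, Sox9, Sox11 and Sox12. Leaving out 2R gave 4548 of 11584 genes (39.3%) and 5 of 5, namely Sox4, Sox8, Sox9, Sox11 and Sox12. In each of these 2 fits the spread rests on the pair 4a and 4b alone.

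Within the pair 2L and 2R, the SOX genes lay far apart, with no test since each side is 1 library. Sox8 was higher in 2L than in 2R by 5.27 on the log2 scale (95% counting interval 4.18 to 7.43), Sox9 by 2.56 (2.26 to 2.89) and Sox11 by 2.07 (1.94 to 2.20). Sox12 and Sox2 lay the other way, with log2 ratios of 2L over 2R of -1.40 (-1.90 to -0.95) and -1.87 (-3.16 to -1.004). Sox5, Sox6 and Sox4 had log2 ratios of 1.09, 0.97 and 0.66. At least 2-fold differences were seen in 6 of the 9 SOX genes, and in 3 of the 4 that passed the filter, against 17.4% of all genes kept, whose log2 ratios had an SD of 0.91.

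Tumors 4a and 4b were closer. Sox8 had a log2 ratio of 4a over 4b of 1.32 (95% counting interval 0.63 to 2.29), on 78 and 16 counts, and Sox6 of 1.31 (-0.18 to 5.12), on 14 and 2 counts. These were the 2 of 9 SOX genes at 2-fold or more, against 4.45% of the genes kept, and 0 of the 4 that passed the filter. Sox9 had a ratio of 0.51, Sox11 of -0.47 and Sox5 of -0.71, with an SD of 0.49 over the genes kept.

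**Figure D4:**
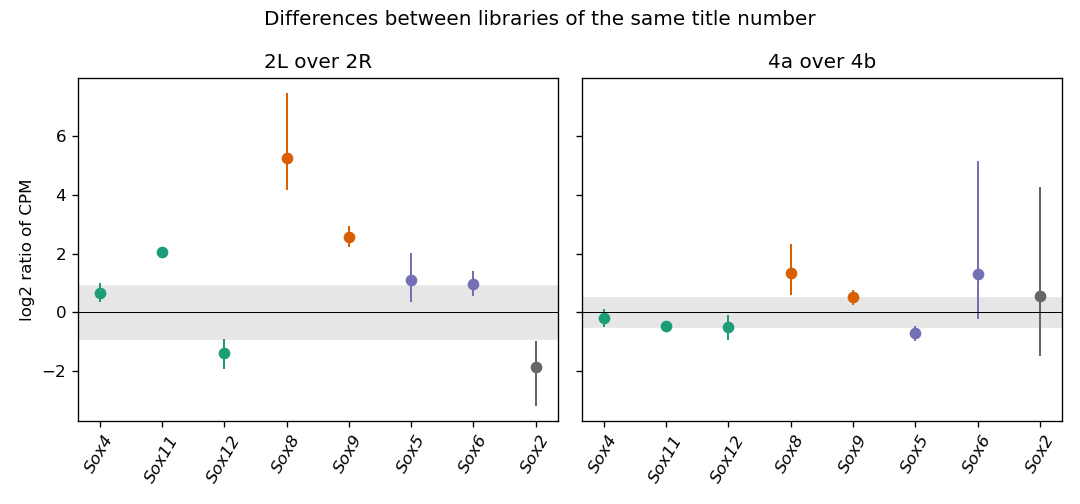
Log2 ratio of each SOX gene within the same-number pairs, 2L over 2R and 4a over 4b, with 95% counting intervals. Gray bands are 1 SD of the log2 ratios of all genes kept, colors mark the SOX groups, and Sox10 is not drawn. Sox8, Sox9 and Sox11 are higher in 2L, at 5.27, 2.56 and 2.07, and most ratios of 4a over 4b lie between -1 and 1.

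The 11 other SOX family genes also varied between tumors. Sox1 and Sox3, the SOXB1 relatives of Sox2, were highest in tumors 1 and 2R: Sox1 had 8.70 and 9.81 CPM there and 7.99 CPM in 3, against at most 1.49 CPM in the other 5. By library totals Sox1 had 3.15 CPM in tumor 3, still above the other 5. Sox3 had 2.75 and 1.25 CPM in tumors 1 and 2R and at most 0.533 CPM in the rest, where the 0.533 CPM of tumor 3 is 1 count. Sox21, a repressor of the SOXB2 group, had 37.6 CPM in 2L, 29.8 in 3, 21.8 in 1, 19.9 in 4b, 8.53 in 5, 7.95 in 4a, 0.623 in 2R and 0 in 6. By library totals Sox21 in tumor 3 was 11.7 CPM, below 51.3 in 2L, 23.8 in 1 and 23.7 in 4b.

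Sox13, the third SOXD gene, averaged 19.1 ± 3.96 CPM (SD, n = 8). Its lowest level was 11.4 CPM in 4a, but 9.86 CPM in 3 by library totals. The SOXF genes of vessel lining cells averaged 7.31 ± 3.32 CPM for Sox7, 4.51 ± 4.27 CPM for Sox17 and 5.07 ± 4.67 CPM for Sox18 (SD, n = 8 each). The endothelial marker Pecam1 had 29.1 to 166 CPM in the same libraries. Sox14 reached 1.56 CPM and Sox15 0.311 CPM, Sox30 had 2 counts in all, and Sry had 0, which allows up to 0.0257 CPM over the libraries together.

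Other neural crest regulators were largely present: 14 of 17 listed genes averaged at least 1 CPM, and of the 8 that passed the filter 0 were called by edgeR's test and 4 had an unadjusted p under 0.05. Tfap2c, an AP-2 factor of the neural plate border, had 8.88 CPM in tumor 1 and 42.8 to 96.4 CPM in the other 7. Ets1, a crest migration factor, had 105 CPM in 2L and 96.4 in 5, and 92.1 in 3, which was 36.3 CPM by library totals. It had 22.7 to 64.8 CPM elsewhere, and Id2, an inhibitor of differentiation, had 34.1 to 80.7 CPM. The paired-box factors Pax3 and Pax7, which act upstream of Sox10 in the crest and also mark muscle stem cells, were highest in tumors 1 and 2R. Pax3 had 14.3 and 14.0 CPM there against at most 5.86 CPM elsewhere (tumor 3, 2.31 CPM by library totals). Pax7 had 6.57 and 9.50 CPM against at most 4.79 CPM (tumor 3, 1.89 CPM by library totals). The 4 muscle satellite cell markers summed to 22.1 CPM in tumor 1, 11.7 in 2R, 8.52 in 3 and 5.13 in 2L, and to at most 1.79 CPM in the other 4. That list includes Pax7, and without it the sums were 15.5 CPM in tumor 1, 3.73 in 3, 2.74 in 2L and 2.18 in 2R. By library totals the 4 markers summed to 3.36 CPM in tumor 3, below 7.01 CPM in 2L. Myod1 and Cdh15 then had 0.420 and 1.05 CPM in tumor 3, against 1.71 and 1.98 CPM in 2L. Neuron and oligodendrocyte markers summed to 38.6 CPM in tumor 1, 12.1 in 2R and at most 7.48 CPM elsewhere. Nearly all of it came from neuronal genes. Snap25, Syt1 and Rbfox3 had 26.8, 8.52 and 2.66 CPM in tumor 1 and 5.76, 4.98 and 1.09 CPM in 2R. The oligodendrocyte gene Olig2 had 0.622 and 0.311 CPM in these tumors, and Olig1 and Mog had 0 in both. Sox1, Sox2, Sox3, Pax3 and Pax7 were all high in tumors 1 and 2R, and the part of satellite cells or neurons in their levels was not tested.

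Cartilage genes that SOX9 activates had their highest levels in different tumors. Of 15 listed, 10 averaged at least 1 CPM, and of the 6 tested 0 were called, with 2 at an unadjusted p under 0.05. Hapln1, a matrix link protein, had 1299 CPM in 2R, the tumor with the least Sox9, and 10.1 to 203 CPM elsewhere. Col2a1, the main cartilage collagen, had 177 CPM in 2R, 175 in 1 and 174 in 3, against 3.32 to 47.5 CPM in the other 5. By library totals Col2a1 had 192 CPM in 1 and 147 in 2R, while tumor 3 had 68.4 CPM, near 60.9 CPM in 2L. The cartilage matrix protein Comp had 177 CPM in tumor 5 and 2.49 to 94.99 CPM in the other 7.

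Col9a2 and Col9a3, chains of collagen IX, were highest in 2L, 5 and 3, under both scalings. Tumors 2L and 5 were also the highest in Sox4 and among the highest in Sox8 and Sox11 under both scalings, while tumor 3 was among them with TMM alone. Col9a2 had 167 CPM in 2L, 68.7 in 5 and 41.01 in 3, against at most 6.57 CPM elsewhere, and Col9a3 had 164, 89.7 and 41.5 CPM in those tumors against at most 3.46 CPM elsewhere. The 6 epidermis and hair follicle markers summed to 855 CPM in 2L, 686 in 5 and 302 in 3, and to at most 75.0 CPM in the other 5. By library totals this sum was 119 CPM in tumor 3, against 82.2 CPM in tumor 1. In 2L and 5 the sum came mostly from the desmosome genes Dsp (411 and 350 CPM) and Dsg3 (396 and 280 CPM). The keratin Krt14 had 45.6 CPM in 2L and 55.1 CPM in 5, against at most 6.04 CPM elsewhere. Another keratin, Krt5, and the epidermal regulator Trp63 were below 1 CPM in both 2L and 5. In tumor 3 Krt5 alone had 193 CPM and Trp63 had 1 count. Their part in the levels of Sox4, Sox8, Sox9 and Sox11 was not tested. Chondrocyte markers summed to 1490.4 CPM in 2R, of which Hapln1 gave 1299 CPM, and to 120.2 CPM in 2L. Without Hapln1 the sums were 192 CPM in 2R, 62.3 CPM in 2L and, the highest, 232 CPM in tumor 1.

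Targets of SOX10 in Schwann cells and melanocytes were present beside almost no Sox10. Of 18 listed, 13 averaged at least 1 CPM, and of the 8 tested 0 were called, with 3 at an unadjusted p under 0.05. Pmp22, a myelin protein that many tissues also express, had 136 to 423 CPM, and the receptor Ret had 63.4 to 199 CPM. Cdh19, a cadherin of Schwann cell precursors, had 485 CPM in tumor 6 and 5.61 to 76.3 CPM in the others. Erbb3, the neuregulin co-receptor, had 92.25 CPM in 2L and at most 13.3 CPM elsewhere, and Dct, a melanin enzyme, had 74.0 CPM in tumor 3 and 0 in tumor 6. By library totals Dct was highest in 2L at 37.3 CPM, with 29.2 CPM in 3. The 6 Schwann cell markers summed to 605 CPM in tumor 6 and to 22.7 to 129 CPM in the other 7.

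Of the 13 neural and stem cell partners of Sox2, 4 averaged at least 1 CPM, and all 4 were tested with 0 called and 2 at an unadjusted p under 0.05. Notch1, a receptor that maintains progenitors, had 41.6 to 159.5 CPM. Nes, the intermediate filament of neural progenitors, had 2.93 CPM in tumor 6 and 17.8 to 39.4 CPM elsewhere. Prom1, a stem cell surface protein, had 70.7 CPM in tumor 1, the tumor with the most Sox2, and 2.85 to 30.6 CPM elsewhere.

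Among 12 genes associated with the SOXC factors, 9 averaged at least 1 CPM, and of the 6 tested 0 were called, with 5 at an unadjusted p under 0.05. Stmn2, a neuronal microtubule regulator, had 161 CPM in tumor 1 and 1.06 to 95.3 CPM elsewhere. Marcksl1, an actin regulator, had 73.0 CPM in tumor 3 and 17.7 to 37.1 CPM elsewhere, and the histone methyltransferase Ezh2 had 57.5 CPM in tumor 3 and 19.6 to 46.9 CPM elsewhere. By library totals neither was highest in tumor 3, with 28.7 CPM for Marcksl1 and 22.7 CPM for Ezh2. The neuronal RNA-binding gene Elavl3 had 12.7 CPM in tumor 1 and 9.05 CPM in tumor 3, against at most 3.27 CPM in the other 6. By library totals Elavl3 had 13.9 CPM in tumor 1, while tumor 3 had 3.57 CPM, near 3.25 CPM in tumor 5. Its relative Elavl4 had 6.21 CPM in tumor 5 and 5.25 CPM in 2L, against at most 1.24 CPM elsewhere.

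The 6 proliferation genes all passed the filter, with 0 called and 3 at an unadjusted p under 0.05. They summed to 681 CPM in tumor 3, where Sox12 was highest, and to 247 to 404 CPM in the other 7. By library totals tumor 3 was not the highest: they summed to 268 CPM there, to 539 CPM in 4a and to 250.02 to 390.2 CPM in the other 6. Mki67, a marker of cycling cells, had 396 CPM in tumor 3 with TMM scaling and 156 CPM by library totals, against 226 CPM in 4a by library totals. The chromosome passenger gene Birc5 and the cyclin Ccnb1 had 28.2 and 18.6 CPM in tumor 3, against at most 13.2 and 9.07 CPM elsewhere, but were highest in 4a by library totals, at 17.6 and 12.1 CPM. Top2a, a topoisomerase, had 100.2 to 185 CPM and the cell cycle kinase Cdk1 14.8 to 37.3 CPM.

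Muscle and red cell markers were high in few tumors. The 7 skeletal muscle genes summed to 20554 CPM in 2L and 6634 CPM in 3, and to 15.0 to 111 CPM in the other 6. By library totals the muscle sum of tumor 3 was 2612 CPM, still above the other 6. Sox6 was highest in 2L, with 19.6 CPM, and had 9.97 CPM in 2R beside a muscle sum of 111 CPM. The part of muscle in the levels of Sox6 was not tested. The 6 erythroid genes summed to 14839 CPM in tumor 5 and to 17.1 to 443 CPM elsewhere. The 6 endothelial genes summed to 341 to 1540 CPM. Of the genes tested, 0 were called in the chondrocyte (2), muscle (2), erythroid (4), epidermis (1), Schwann cell (4) and endothelial (6) lists, with 0, 1, 4, 1, 2 and 0 at an unadjusted p under 0.05.

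Relations between 12 gene pairs were computed on log2 CPM over the 6 title numbers, same-number libraries averaged, with two-sided exact permutation tests (720 orderings, smallest possible p = 0.00278). After Benjamini-Hochberg adjustment 0 of the 12 passed. Sox4 and Sox11 had r = 0.730 (exact permutation p = 0.101, adjusted 0.608) and rho = 0.714 (exact p = 0.136, adjusted 0.700), and r fell to 0.137 without tumors 5 and 6. Sox6 and the muscle gene Ttn had r = 0.702 (exact permutation p = 0.0903, adjusted 0.608) and rho = 0.714 (exact p = 0.136, adjusted 0.700), and r was 0.190 without numbers 4 and 6. Sox9 and Sox5 had r = -0.650 (exact permutation p = 0.164, adjusted 0.656) and rho = -0.657 (exact p = 0.175, adjusted 0.700), and r was 0.0124 without numbers 3 and 4. For Sox9 and Col2a1 r was 0.387 (exact permutation p = 0.444, adjusted 0.896) and rho was 0.314 (exact p = 0.564, adjusted 0.714), and r turned to -0.903 without numbers 3 and 4. The numbers left out are the most extreme in the first gene, so the range of the 4 remaining is narrower. Leaving out 1 library at a time kept r at 0.458 to 0.853 for Sox4 with Sox11, at 0.573 to 0.838 for Sox6 with Ttn and at -0.809 to -0.261 for Sox9 with Sox5. The scaling mattered more for Sox9: by library totals r was -0.0247 with Sox5 and 0.0515 with Col2a1. It was 0.536 for Sox4 with Sox11 and 0.589 for Sox6 with Ttn by library totals.

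The genes with the profile most like a SOX gene were taken from 9190 candidates averaging at least 10 CPM, by Pearson's r of log2 CPM over the 8 libraries, which share any difference in depth or composition. Sox9 was closest to Myrip, a linker of myosin and a Rab protein (r = 0.983, and 0.994 without tumor 3), and to Gas7 (r = 0.953). Sox11 was closest to 2900026A02Rik (r = 0.978) and to Slc24a4, an ion exchanger (r = 0.970). Sox4 was closest to Zdhhc21, a palmitoyltransferase (r = 0.964), whose range was only 43.5 to 55.2 CPM, and to the integrin subunit Itga3 (r = 0.957). Sox12 was closest to Zfp346 (r = 0.995, and 0.983 without tumor 3) and Atad3a (r = 0.986, and 0.933 without tumor 3). With 8 libraries and this many candidates, such values are a description.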

How the data were processed

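RNA of 8 tumors was sequenced as total RNA depleted of ribosomal RNA, per the labels. The authors deposited whole-number raw counts per gene. The submitters' processing notes list STAR 2.7.5a, RSEM, featureCounts, cutadapt and the build mm10, with no order or role given, and strand handling is not given in the sources used here. Identifiers were matched to GENCODE M21 on mm10, which named 49326 of 49671 (99.31%).

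The analysis used edgeR 4.0.16 in R 4.3.3: filterByExpr for 1 group (minimum count 10), TMM scaling, log2 CPM with a prior count of 2, and a quasi-likelihood F-test among the 6 title numbers with 2 residual degrees of freedom, adjusted after Benjamini and Hochberg over all genes tested at 0.05. DESeq2 1.42.0 was an alternative, as were other scalings (for marker sums and libraries standing apart, library totals and sums without Hapln1 or Pax7 were added after seeing the data), no filter, a prior count of 0.5 and leaving out each library. The edgeR step was tested on data with known changes. Depth set the precision: 3 counts, the limit for a count of 0, were 1.60 CPM in tumor 3 and 0.118 to 0.467 CPM in the others. Intervals are 95% exact Poisson, or conditional binomial for ratios, and cover counting error only. Promoter windows are from RefSeq, GRCm38.p6.

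The SOX genes, lists and tests were chosen with earlier results of these data known. Named were all SOX genes, from each list of regulators, targets and proliferation genes the 3 highest by mean CPM and the 2 most variable by SD of log2 CPM, among those averaging at least 1 CPM, and for each SOX gene kept the 2 most similar genes. Other genes named, among them Mitf, Foxd3 and Pecam1, are defining markers. Marker lists of other cell types are given as summed CPM.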

Additional observations from a re-analysis of the deposited data

Results flagged for a closer look

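Over the 8 libraries, 65 genes were tested for a library standing apart from the others on the log2 scale, and 9 had one whose gap to its nearest neighbour, divided by the whole range, was above Dixon's critical value. About 1 in 20 genes would pass by chance if genes were drawn without regard to their spread. Some of the 65 were named as the most variable of their list in these same libraries. That rate is therefore no yardstick for the number flagged. By library totals, a check chosen after seeing the data, 2 of the 9 still passed, Krt5 in tumor 3 (0.597) and Hbb-bt in tumor 5 (0.541). Of the SOX genes under study, Sox12 was the one that passed, highest in tumor 3 with a ratio of 0.560 (75.1 CPM there, against 3.76 to 14.2 CPM in the other 7). By library totals the ratio of Sox12 was 0.319, under the critical value. Mki67 and Krt5 were also highest in tumor 3, with ratios of 0.638 (396 CPM against 105 to 170) and 0.674 (193 CPM against 0 to 1.33). By library totals Mki67 was highest in 4a, with a ratio of 0.401. In tumor 6, Nes, Acan and Rbfox3 were lowest, with ratios of 0.690 (2.93 CPM against 17.8 to 39.4), 0.577 (0.122 CPM against 5.29 to 50.5) and 0.598 (0.0406 CPM against 0.787 to 2.66). Sox13 was lowest in tumor 4a, with a ratio of 0.601 (11.4 CPM against 18.3 to 25.03), and by library totals in tumor 3, with a ratio of 0.375. Tfap2c was lowest in tumor 1, with a ratio of 0.658 (8.88 CPM against 42.8 to 96.4), and Hbb-bt was highest in tumor 5, with a ratio of 0.530 (2074 CPM against 2.55 to 60.8).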

How the results depend on the processing

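No calls among the 6 title numbers were made by edgeR's test with the filter, whether scaled by TMM or by edgeR's relative log expression factors. Without the filter 6260 genes and 5 SOX genes were called, and DESeq2's likelihood ratio test called 2383 genes and 1 SOX gene. Leaving out 1 library gave 0 to 4548 genes and 0 to 5 SOX genes: 4457 and 3 without 2L, 4548 and 5 without 2R, and 0 without any of the other 6. Without 2L or 2R, the spread came from 4a and 4b alone. By library totals 7 SOX genes, against 6, were at least 2-fold apart between 2L and 2R: the log2 ratio of Sox12 was -0.69, while those of Sox4 and Sox6 were 1.38 and 1.68. The relation of Sox4 with Sox12, r = 0.183, turned to -0.754 by library totals, that of Sox9 with Tfap2a from 0.0679 to -0.506, and that of Sox4 with Mki67 from 0.334 to -0.304. The cause was not tested. Leaving out 1 library gave r of -0.290 to 0.435 for Sox9 with Sox6, -0.359 to 0.766 for Sox9 with Tfap2a, -0.499 to 0.361 for Sox8 with S100b, -0.170 to 0.515 for Sox4 with Sox12 and -0.599 to 0.629 for Sox9 with Cdh19. The order of levels per kb held under each scaling and the longest transcript, and changed in 2 places without 2L, 4b, 5 or 6. A paired analysis with a replicate block was not possible because the 8 libraries form 1 group. The depth of tumor 3 limits what can be said of Sox2, Sox5 and Sox10 there.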
